A study of Rattus norvegicus with 6 samples.

Results

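The genes described here are 9 that encode proteins moving calcium out of the mitochondrial matrix, opening the outer membrane to it, or controlling those routes. They are Slc8b1, Letm1, Letm2, Ghitm, Vdac1, Vdac2, Vdac3, Ppif and Afg3l2. They were found by gene symbol in a deposited table of 40456 genes, and all 9 were present and had enough counts to be tested. The table came from H9c2, a rat cell line derived from embryonic heart that fuses into muscle-like cells, labelled wild type. Both groups were kept 5 days in low-serum medium with daily retinoic acid (1 µM) and then carried a locked nucleic acid (LNA) gapmer at 25 nM for 24 h. One group of 3 libraries received the negative control LNA and the other group of 3 the Tug1 knockdown LNA. Tug1 is a long non-coding RNA. Every knockdown library used the same single gapmer, so effects of losing Tug1 and effects of that oligonucleotide on other RNAs cannot be told apart. The labels do not say whether replicates were separate cultures, so the p-values measure the spread between these libraries, which may be technical.

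Calcium crosses the outer mitochondrial membrane through the voltage-dependent anion channels (VDAC), enters the matrix through the uniporter, and leaves in exchange for sodium or protons. In muscle, sodium-driven efflux through the exchanger encoded by Slc8b1 is the main way out, and the proteins of Letm1 and Ghitm have been tied to exchange for protons. When matrix calcium stays too high, the permeability transition pore opens, and cyclophilin D, the product of Ppif, makes that opening easier. The series title names the uniporter and calcium signalling, so these genes bear on other steps of the same transport.

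The 2 gapmers are shown because they define the groups. A gapmer pairs with its target RNA and lets RNase H cut it. Both are 16 bases long and are written 5′ to 3′ as the labels give them.
Tug1 gapmer: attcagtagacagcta
Negative control gapmer: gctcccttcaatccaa

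Tug1 itself had 713, 672 and 718 counts in the control libraries and 164, 152 and 165 in the knockdown libraries, so the deposited values follow the labels. Its level fell to 22.0% of control (log2 fold change -2.19, SE 0.0786; edgeR adjusted p 4.39e-16). Library totals ran from 12978548 to 13544337 counts, and 0 pairs of libraries were identical. The labels call the cells cardiomyocytes, but 5 of 8 cardiomyocyte markers (Myh6, Myh7, Nppb, Nkx2-5 and Ryr2) were at or under 3 counts in every library. Nppa and Tnni3 reached at most 4 counts. Actn2 was at 1.36 CPM (counts scaled to library size) in the controls and 1.65 CPM after knockdown. All 8 summed to 1.01 to 2.22 CPM in the controls and 1.89 to 1.96 CPM after knockdown. Skeletal myoblast markers were present, and their summed level was higher after knockdown, 589 to 633 CPM against 392 to 401. Most of that sum was Myog, which went from 275 ± 4.39 to 486 ± 25.7 CPM (SD, n = 3), so the sum mainly follows that gene. Of the 7 skeletal markers, 5 rose, Myod1 fell (a call lost with an offset for gene length, -0.13) and Myf5 was at or under 3 counts throughout. The summed level of 4 smooth muscle markers was also higher, 835 to 960 CPM against 686 to 744, with 3 of the 4 genes called higher. Most of this sum was Acta2, which went from 638 ± 33.1 to 805 ± 67.6 CPM (SD, n = 3). Of 5 fibroblast markers 2 rose (Col3a1 and Dcn) and 2 fell (Col1a1 and Thy1), and their sums overlapped, 28502 to 29444 CPM in the controls and 27077 to 29102 CPM after knockdown. Macrophage markers summed to 10.6 to 12.1 CPM in the controls and 15.4 to 17.2 CPM after knockdown, with 1 of 4 called higher and Ptprc and Adgre1 at 0 counts. Endothelial markers summed to 2.55 to 3.70 CPM in the controls and 2.07 to 3.12 CPM after knockdown, with 3 of 4 at or under 3 counts. In bulk RNA a change in the share of cells and a change in RNA per cell cannot be told apart, and the part of these shifts in the results below was not tested.

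Of the 9 genes, 6 rose and 1 fell after Tug1 knockdown at an adjusted p under 0.05 in edgeR's quasi-likelihood test, and 2 did not pass. Across all 14216 tested genes 61.7% passed, 30.8% higher and 30.9% lower, so 7 of 9 is not far from what the whole table shows. The median log2 fold change was 0.17 over the 9 genes and 0.00 over all tested genes. The median absolute change was smaller among the 9 genes, 0.19 against 0.34. The 3 control and the 3 knockdown libraries did not overlap in CPM for 7 of the 9 genes, against 65.6% of all tested genes. The rises were led by Letm1 and Vdac1, and Slc8b1 was the gene that fell.

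**Figure D1:**
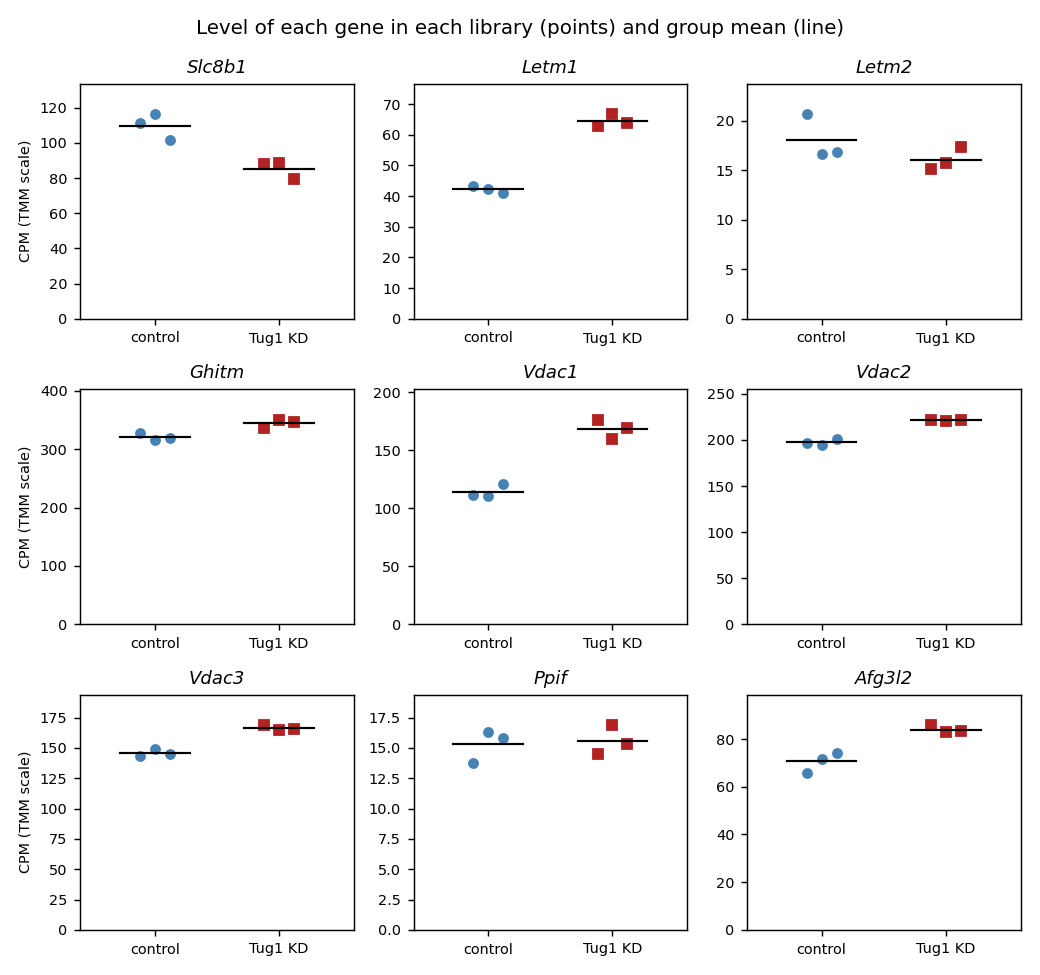
Level of each gene in CPM on the TMM scale (y axis, from 0 in each panel) in the control and Tug1 knockdown libraries; points are libraries and lines are means of 3. Letm1 and Vdac1 separated most clearly upwards, Slc8b1 downwards, and the groups overlapped for Letm2 and Ppif.

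Slc8b1 encodes the mitochondrial sodium-calcium-lithium exchanger. Its level was 111, 116 and 101 CPM in control replicates 1 to 3 and 87.9, 88.4 and 79.6 CPM in knockdown replicates 1 to 3. Replicate 3 was the lowest library of each group, and the groups did not overlap. The mean fell from 109.7 ± 7.58 to 85.3 ± 4.95 CPM (SD, n = 3), to 77.8% of control. The log2 fold change was -0.36 (95% interval -0.49 to -0.24; edgeR adjusted p 1.56e-05). It stayed between -0.41 and -0.31, and past the threshold, in all 16 alternative fits. Its change was close to the middle of the table in size, larger than that of 52.4% of tested genes.

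Letm1 encodes an inner membrane protein needed for potassium-proton balance and, in some studies, for calcium-proton exchange. It stood at 43.3, 42.3 and 41.0 CPM in the controls and at 62.8, 66.6 and 63.7 CPM after knockdown. The libraries of a group lay within a few CPM of each other and far from the other group. The control mean was 42.2 ± 1.16 CPM and the knockdown mean 64.4 ± 2.02 CPM (SD, n = 3). Letm1 thus rose by 0.61 on the log2 scale (95% interval 0.49 to 0.74; edgeR adjusted p 8.04e-09). Among the 9 genes this was the largest change, while 74.3% of all tested genes changed by less. On GRCr8 a ribosomal protein pseudogene model, Rpl18-ps12, overlaps its span, and how reads shared with it were counted is not given in the sources used here.

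Letm2, its paralog, was measured at 269, 215 and 218 counts in the controls and 208, 212 and 229 counts after knockdown. On the CPM scale that was 20.6, 16.6 and 16.8 against 15.1, 15.7 and 17.3. Control replicate 1 was the highest library, and the remaining 5 lay together. The log2 fold change of -0.17 did not pass (95% interval -0.38 to 0.04; edgeR adjusted p 0.153). Without control replicate 1 it was -0.06. The interval leaves room for a modest fall but not for a rise of the size seen in Letm1. The spread of the control libraries (coefficient of variation 12.5%) was larger than counting error at this depth (6.66%).

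Ghitm, also called Tmbim5, encodes an inner membrane protein of the BAX-inhibitor family that binds the Letm1 protein. It was at 328, 315 and 319.6 CPM in the controls and 337, 350.4 and 346 CPM after knockdown. The groups did not overlap, but the highest control and the lowest knockdown library lay closer together than the extremes within either group. The mean rose by a log2 fold change of 0.10 (95% interval 0.01 to 0.19; edgeR adjusted p 0.0435), to 107% of control. The call was lost in 8 of 16 alternative fits, among them 5 of the 6 that left out a library and the one with DESeq2 size factors (adjusted p 0.0511). With the length offset and the replicate block together it was 0.18. The direction was higher in all 16.

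**Figure D2:**
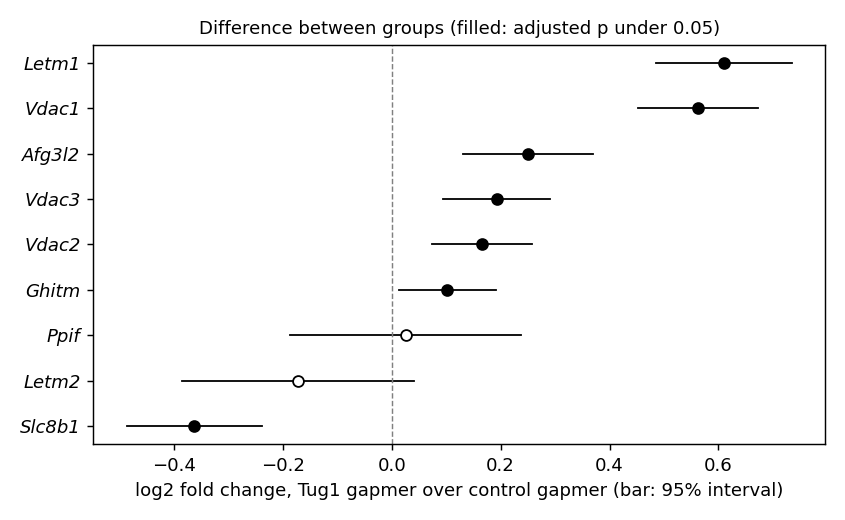
Log2 fold change of each gene (x axis, Tug1 gapmer over control gapmer) with its 95% interval, ordered by size; filled points passed an adjusted p of 0.05. Letm1 (0.61) and Vdac1 (0.56) lie apart from the 4 smaller rises, Slc8b1 (-0.36) lies on the other side of 0, and the intervals of Letm2 and Ppif include 0.

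The 3 VDAC genes encode the pores through which calcium, ATP and metabolites cross the outer membrane. All 3 rose, Vdac1 most. Vdac1 stood at 111, 110.4 and 121 CPM in the controls and 176, 160.3 and 169 CPM after knockdown. Every knockdown library was well above the highest control. Group means were 114 ± 5.77 and 169 ± 8.07 CPM (SD, n = 3), and the rise was 0.56 on the log2 scale (95% interval 0.45 to 0.67; edgeR adjusted p 4.28e-09).

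Vdac2, whose protein also binds the cell death effector BAK, went from 197, 195 and 201 to 221, 221 and 222 CPM. The 3 knockdown libraries were nearly equal. The log2 fold change was 0.17 (95% interval 0.07 to 0.26; edgeR adjusted p 0.00257). Vdac3 went from 143, 149 and 145 to 169, 164 and 166 CPM, again with no overlap. The log2 fold change was 0.19 (95% interval 0.09 to 0.29; edgeR adjusted p 0.00115). Each of the 3 genes kept its direction and its call in all 16 alternative fits. In the RefSeq gene table of assembly GRCr8, Vdac3 overlaps Vdac3l1, a gene model not analysed here, and Vdac2 overlaps Comtd1. Comtd1 went from 20.4 ± 2.38 to 16.9 ± 1.06 CPM (SD, n = 3). The difference of -0.27 on the log2 scale passed (edgeR adjusted p 0.0209), but not in 7 of 16 alternative fits (-0.09 with the length offset). How reads shared with these models were counted, and whether strand was used, is not given in the sources used here. The values of Vdac2 and Vdac3 carry that uncertainty.

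Summed over the 3 genes, VDAC counts rose in CPM without overlap between groups, 451 to 466 in the controls and 546 to 566 after knockdown, so the pool grew and its make-up shifted. Vdac1 gave 24.7%, 24.3% and 25.9% of the VDAC counts in the controls and 31.1%, 29.4% and 30.4% after knockdown. The share of Vdac2 went from 43.2% ± 0.358 to 39.8% ± 0.713 and that of Vdac3 from 31.8% ± 0.879 to 29.9% ± 0.205 (SD, n = 3). These are shares of counts. Transcript lengths were not used here, so they do not rank the 3 genes by molecules.

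**Figure D3:**
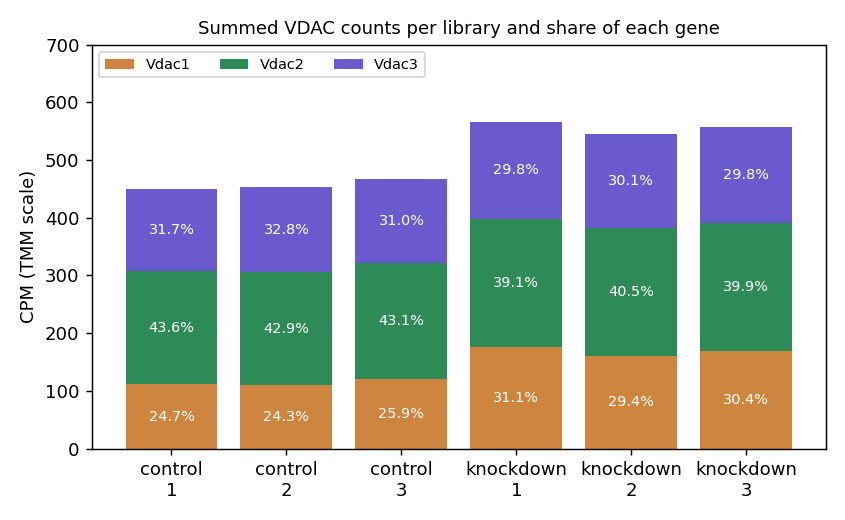
Stacked CPM of Vdac1, Vdac2 and Vdac3 in each library (y axis from 0), with each gene's percent of the library's summed VDAC counts written in its segment. The knockdown columns are taller, and the Vdac1 segment takes 29.4% to 31.1% of them against 24.3% to 25.9% in the controls.

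Promoter windows of 250 bases before to 50 bases after the gene start, from RefSeq on GRCr8, matched 6 of the 9 genes (Letm1, Ghitm, Vdac1, Vdac2, Ppif and Afg3l2). Those of Letm1 and Vdac1 are shown because these genes rose most, and that of Vdac2 as the paralog that rose less. Capitals mark matches on either strand to the SP1 GC box GGGCGG or to the CCAAT box, both searched on both strands without merging overlaps.
Letm1, chr14:81167018-81167317, + strand: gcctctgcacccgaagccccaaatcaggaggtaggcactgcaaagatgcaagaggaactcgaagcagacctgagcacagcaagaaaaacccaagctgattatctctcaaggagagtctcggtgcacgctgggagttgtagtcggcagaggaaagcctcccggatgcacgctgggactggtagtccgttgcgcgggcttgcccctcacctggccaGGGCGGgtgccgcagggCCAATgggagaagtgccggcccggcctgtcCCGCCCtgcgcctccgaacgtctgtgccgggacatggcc
Vdac1, chr10:37032959-37033258, + strand: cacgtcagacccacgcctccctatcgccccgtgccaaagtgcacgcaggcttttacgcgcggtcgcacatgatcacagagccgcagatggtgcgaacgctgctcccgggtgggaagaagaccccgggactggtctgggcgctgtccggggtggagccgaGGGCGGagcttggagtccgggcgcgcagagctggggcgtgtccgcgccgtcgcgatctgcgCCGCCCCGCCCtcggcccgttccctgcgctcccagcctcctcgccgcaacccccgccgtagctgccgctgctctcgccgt
Vdac2, chr15:2525837-2526136, - strand: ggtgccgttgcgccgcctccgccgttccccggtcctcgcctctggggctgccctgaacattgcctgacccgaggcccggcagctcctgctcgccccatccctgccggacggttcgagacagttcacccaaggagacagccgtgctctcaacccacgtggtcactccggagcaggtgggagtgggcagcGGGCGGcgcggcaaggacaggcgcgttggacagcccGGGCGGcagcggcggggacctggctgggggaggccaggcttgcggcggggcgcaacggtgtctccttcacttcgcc

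All 3 windows hold the GC box, which 33.1% of 33469 rat promoter windows of this length hold, and 4 of the 6 matched genes have it, Afg3l2 being the other. That share is over all windows and not over windows matched for GC content, which is higher in these 3. Letm1 has a CCAAT match just before its start, as 37.5% of all windows do somewhere. GC content was 63.3% for Letm1, 72% for Vdac1 and 72.3% for Vdac2, against a median of 51.7% over all windows. The number of CG pairs was 19, 40 and 31 in the same order, against a median of 7. A link between these features and the size of a rise was not tested. In the Ghitm window CCAAT was found 3 times, all on the other strand. The antioxidant response element core TGACNNNGC (12.1% of all windows), the NRF1 core GCGCATGC (2.47%), the ERR core AAGGTCA (4.61%) and the TATA box TATAAA (14.2%) matched 0 of the 6. The ETS core CCGGAAG, bound by GABPA and found in 8.75% of all windows, matched the Ppif window alone. A match or its absence describes letters in this window.

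Ppif encodes cyclophilin D, the matrix regulator of the permeability transition pore. It had 179, 211 and 205 counts in the controls and 200, 228 and 203 counts after knockdown. That was 13.7, 16.3 and 15.8 CPM against 14.5, 16.9 and 15.3 CPM, with the groups interleaved. The log2 fold change of 0.03 did not pass (95% interval -0.19 to 0.24; edgeR adjusted p 0.844). The interval excludes changes as large as those of Letm1 and Vdac1, in either direction. The sign turned without control replicate 1 (-0.05) or without knockdown replicate 2 (-0.03).

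Afg3l2 encodes a subunit of the m-AAA protease of the inner membrane, which among other tasks removes unassembled EMRE, the small subunit of the uniporter. It stood at 65.7, 71.8 and 74.3 CPM in the controls and 85.8, 82.8 and 83.5 CPM after knockdown. All knockdown libraries were above all controls, and control replicate 1 was the lowest. The log2 fold change was 0.25 (95% interval 0.13 to 0.37; edgeR adjusted p 0.000631), from 70.6 ± 4.44 to 84.0 ± 1.56 CPM (SD, n = 3). The smallest value over the alternatives was 0.17, with the offset for gene length. On GRCr8 the gene overlaps Prelid3a, which fell (log2 fold change -0.66), and a long non-coding RNA model. How reads shared with them were counted is likewise not given, so the value of Afg3l2 carries the same uncertainty.

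Ratios of 2 genes within a library do not depend on library size. Over 6 pairs, tested by an exact two-sided permutation of the 6 libraries, the smallest p that 3 against 3 can give is 0.1, so no pair could pass 0.05. The difference between the groups in log2(Vdac1/Vdac2) was 0.40, from -0.79 ± 0.0498 to -0.39 ± 0.0683 (SD, n = 3), and in log2(Vdac1/Vdac3) it was 0.37, from -0.35 ± 0.0855 to 0.02 ± 0.0517. In both pairs the groups did not overlap (exact permutation p 0.1, adjusted over the 6 pairs 0.12). Vdac3 and Vdac2 kept closer to each other, with a difference of 0.03 and overlapping groups (exact permutation p 0.5).

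The ratio of Letm1 to Slc8b1 counts went from 0.385 to 0.755, a difference of 0.97 on the log2 scale, with groups that did not overlap (exact permutation p 0.1). Letm1 over Letm2 went from 2.35 to 4.02, a log2 difference of 0.78 (exact permutation p 0.1). The ratio of Slc8b1 to Mcu, the pore gene of the uniporter, was 3.30 in controls and 1.52 after knockdown, a log2 difference of -1.12 with groups apart (exact permutation p 0.1). Mcu itself rose (33.2 ± 2.44 to 56.2 ± 1.90 CPM, SD, n = 3) by 0.76 on the log2 scale, and by 0.48 with an offset for gene length. With that offset, added for the ratios after seeing the data, the log2 difference of Slc8b1 and Mcu was -0.83. Slc8b1 (-0.36) and Mcu thus changed in opposite directions in the same libraries. Letm1 (0.61) and Ghitm (0.10), tied to exchange for protons, rose as Mcu did, although the Ghitm call was lost in 8 of 16 alternative fits. These are count ratios, and their size within a group also depends on transcript length.

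**Figure D4:**
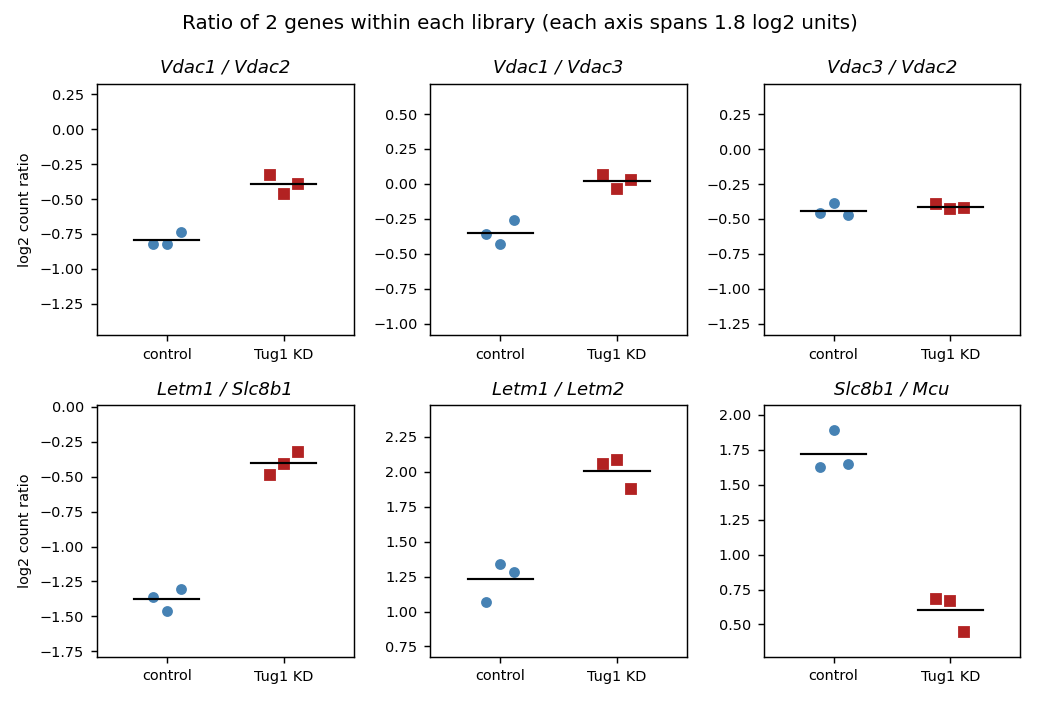
Log2 ratio of counts of 2 genes in each library (y axis, the same span in every panel) for the control and Tug1 knockdown groups; points are libraries and lines are means of 3. Control and knockdown libraries stand apart for 5 pairs, with Slc8b1 / Mcu falling by 1.12, and overlap for Vdac3 / Vdac2. The groups also stood apart for 65.6% of single tested genes.

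The genes around this transport were taken from 7 lists. Across all tested genes 61.7% passed, 30.8% higher and 30.9% lower. Within the lists the share ran from 50% to 80%, and no list was tested as a set. On the uptake side 10 of 10 genes were tested, and 2 rose and 3 fell. Mcu and the regulator Micu3 (1.17) rose, and the calcium-regulated ATP-Mg carriers Slc25a24 (-1.36) and Slc25a25 (-0.56) were among those that fell. Micu2 (-0.07), Smdt1 (0.05), which encodes EMRE, Mcub (0.19), Mcur1 (0.18) and Slc25a23 (-0.03) did not pass. The list's median was 0.01 beside 0.17 for the efflux and outer membrane genes and 0.00 for all tested genes.

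Among partners of cyclophilin D in the permeability transition, 5 of 10 tested genes rose and 3 fell (median 0.11). That is 80% passing, beside 61.7% of all tested genes. The matrix chaperone Trap1, which binds cyclophilin D, rose by 1.06 on the log2 scale, from 27.5 ± 2.23 to 57.4 ± 2.47 CPM (SD, n = 3), where Ppif had 0.03. The adenine nucleotide translocator Slc25a5 fell by 0.31, and by 0.13 with the length offset. Among outer membrane partners of the VDAC proteins 3 of 12 rose and 5 fell (66.7% passed, median -0.01). Hexokinase 2 (Hk2), which docks on VDAC, rose by 0.57, close to Vdac1, and Mcl1, an anti-apoptotic BCL-2 relative, fell by 0.63. The VDAC genes thus rose in libraries in which genes of their partners went both ways.

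Proteins of contacts between reticulum and mitochondrion, where VDAC meets the IP3 receptor, had 8 of 15 tested genes higher and 3 lower (median 0.15). That is 73.3% passing, beside 61.7% of all tested genes. Fundc1, a mitophagy receptor at these contacts, rose by 0.74, and the import receptor gene Tomm70 fell by 0.39. For the m-AAA protease and other inner membrane proteolysis 6 of 13 rose and 4 fell (76.9% passed, median 0.14). Afg3l1, the close relative of Afg3l2, rose by 0.44, and Spg7, which encodes the partner subunit of the AFG3L2 protein, fell by 0.25. Both were singled out after their values were seen. The fusion GTPase Opa1 rose by 0.58 and the matrix protease Lonp1 fell by 0.29.

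Among family relatives of the 9 genes, 6 of 22 tested genes rose and 10 fell (72.7% passed, all tested genes 61.7%, median -0.13). Most of those that fell were cyclophilins, the relatives of Ppif, but other cyclophilins did not pass or rose. The few sodium-calcium exchangers that passed rose, and others did not pass or had too few counts to be tested. The median therefore mixes families, and a difference between them was not tested. The plasma membrane sodium-calcium exchanger Slc8a1 rose by 0.65, from 26.3 ± 1.40 to 41.2 ± 2.12 CPM (SD, n = 3), opposite to its mitochondrial relative Slc8b1. With the length offset Slc8a1 was at 0.26. Of the Ppif relatives, the reticulum cyclophilin Ppib fell by 0.64. A set of 18 other nuclear genes for mitochondrial proteins was taken as a reference for mitochondrial content. It had 7 higher, 2 lower and 9 that did not pass (50% passed, median 0.07). Tfam, the packaging factor of mitochondrial DNA, fell by 0.52 on the log2 scale.

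**Figure D5:**
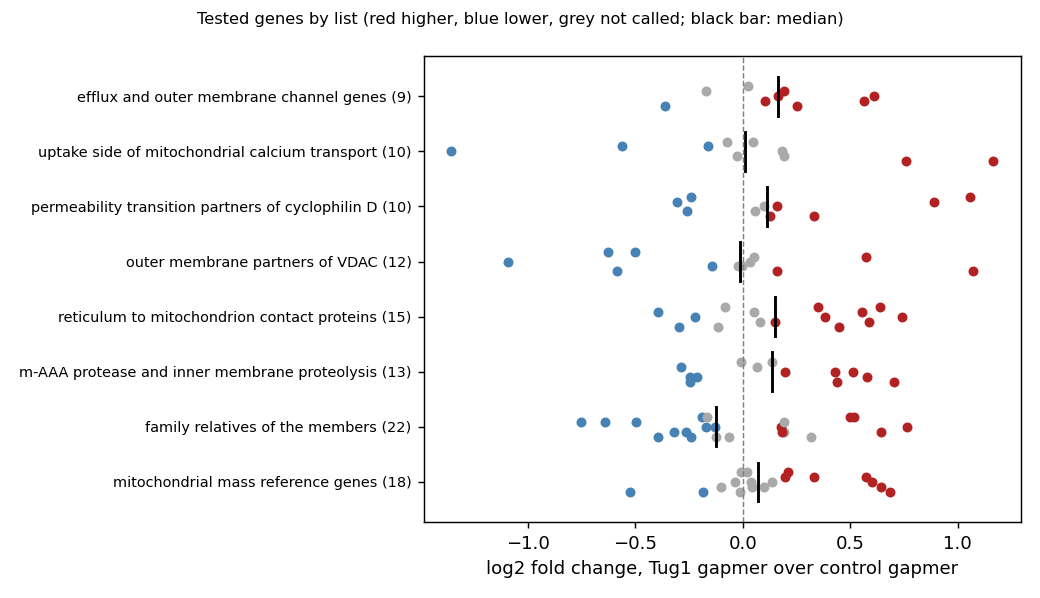
Log2 fold change (x axis, Tug1 gapmer over control gapmer) of each tested gene, by list, with the number of genes in brackets; red points rose, blue points fell, grey points did not pass, and the black bar is the median. The 9 efflux and outer membrane channel genes have a median of 0.17, and each list holds genes on both sides of 0.

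The genes most like 3 of the members over the 6 libraries were found by Pearson's r of log2 CPM among 9066 other genes with a symbol whose mean reached 10 CPM. For Slc8b1 they were Asf1a (r = 0.997), Rsrp1 (0.997) and Ripor1 (0.996). For Letm1 they were Rapgef1, Cul7 and Actr1a, each at r = 1.00 after rounding. For Vdac1 they were Rfx7 (0.999), Lacc1 (0.999) and Mark3 (0.998). All 6 points share the split into 2 groups, and r was over 0.9 for 1595 genes with Slc8b1, 2340 with Letm1 and 2205 with Vdac1, so this likeness is a description of shared group difference.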

How the data were processed

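RNA sequencing was done on poly-A selected RNA (500 ng, integrity number 9 or more) from 6 H9c2 libraries, with a stranded kit, per the labels' protocols. The authors deposited whole-number read counts per gene symbol, unscaled and per replicate. FastQC 0.11.7, fastp 0.14.1 and STAR 2.5 are named, without a role, per the submitters' processing notes; counting tool, genome build, annotation and use of strand are not given in the sources used here. Genes kept by edgeR's filterByExpr (at least 10 counts, and 15 in total) held 99.8% of the counts. They were scaled by TMM (factors 0.979 to 1.02) and tested with edgeR 4.0.16 in R 4.3.3 by the quasi-likelihood test (two-sided, prior count 0.125, all 6 libraries, no block), with Benjamini-Hochberg adjustment over all 14216 tested genes. CPM are on the TMM scale. At 12.9 to 13.8 counts per CPM, 3 counts, the limit for detection, are 0.217 to 0.232 CPM, which covers counting error only. Ratios used counts plus 0.5.

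The members, lists, ratios and alternatives were chosen with earlier results of these data known. Named were Tug1, the 9 genes, Mcu, all genes of the uptake list, of each other list the called genes with the highest and lowest change at 10 CPM or more, and the 3 genes most like Slc8b1, Letm1 and Vdac1. Some genes under this rule enter the counts only and are not reported here. Spg7, Afg3l1, Comtd1, Prelid3a and the cell markers were named besides. Alternatives were DESeq2 size factors, library totals, DESeq2 1.42.0's Wald test, limma-voom (limma 3.58.1), no filter, a mean of 1 CPM, an adjusted p of 0.01, the replicate number as a block, a lowess offset for genomic span (GRCr8, 13084 tested genes), both together, and each library left out. Scripts were tested on simulated data. Planned comparisons of protein sequences and of levels per coding length were not run, and sequence matches were exact.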

Additional observations from a re-analysis of the deposited data

How the results depend on the processing

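Gene and list values were refitted under 16 alternatives and ratios under 10, with 2 more for the ratios, both with the length offset, chosen after seeing the data. The genes most like 3 members and the cell markers other than Myod1 were not refitted. Tug1 stayed between -2.22 and -2.07 (-2.22 to -2.15 with a library left out) and the count of tested genes called between 7353 and 8987. Of the 9 members 6 or 7 were called throughout, 5 or 6 higher and 1 lower; the change came from Ghitm. Ppif was the member whose sign turned, at -0.0482 without control replicate 1 and -0.0341 without knockdown replicate 2, within -0.0482 to 0.0770 over the fits that left out a library; its highest value was 0.143, with the length offset and replicate block. The 6 ratios kept their direction in all 12. With the length offset, alone or with the replicate block, Vdac1/Vdac2 moved to 0.313 and Slc8b1/Mcu to -0.827 and -0.828. The length offset, alone or with the replicate block, took the called genes of the mitochondrial content reference list from 9 to 14. With it Micu2 (-0.233, and -0.231 with the block) and Smdt1 (0.228 and 0.229) passed the threshold. Library totals moved the median of all tested genes to 0.06.

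Among 27 other genes, 21 kept direction and call everywhere. Of 432 combinations of gene and alternative 9 lost the call, all for Comtd1 or Myod1, and 9 reversed. Reversed were Mcub without knockdown replicate 1 (-0.00179), Micu2 without control replicate 3 (0.0166), and Slc25a23, near 1 CPM, with library totals (0.0235), the length offset (0.0168, and 0.0113 with the block), without control replicates 2 (0.0171) and 3 (0.115) and without knockdown replicates 1 (0.203) and 3 (0.0169). Over the fits that left out a library Mcub ranged to 0.375, Micu2 down to -0.128 and Slc25a23 down to -0.353. The cause was not tested. Mcub, Micu2, Smdt1 and Slc25a23 were not called in the reported fit. Replicate numbers did not pair the libraries (correlations of deviations -0.0079, 0.0408 and 0.0368), and with the number as a replicate block no member changed its call. Letm2 and Ppif, the members not called, had the fewest counts of the 9, with counting errors of 6.66% and 7.00% a library.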
